A study of Mus musculus with 58 samples.

Results

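Described here are 9 genes that hold Wnt signalling back, out of 18820 genes measured, in skeletal muscle and heart of mice with cancer cachexia. They are the secreted Frizzled-related proteins Frzb, Sfrp1, Sfrp2, Sfrp4 and Sfrp5, the Wnt inhibitory factor Wif1, the Dickkopf proteins Dkk2 and Dkk3, and Axin2, which is not secreted and works inside the cell. The genes were chosen by a measured value, the level of Frzb in soleus, which separated tumour-bearing from control mice. The tumour comparisons in soleus are therefore given as a description, with no test, and tests were kept for the other tissues, for training, for differences between tissues and for body mass within the tumour-bearing mice. Frzb in control soleus against the other tissues, and its slope on body mass in soleus, are likewise given without a test, since those values took part in the choice. Each of the 9 genes was measured by 1 probe set, and all 9 are accounted for in every comparison.

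All 23 mice were male CD2F1 animals, the cross of BALB/c with DBA/2, 6 to 8 weeks old and housed singly on chow. Tumour-bearing mice (T) received murine C26 colon adenocarcinoma cells under the skin of the flank, and controls (C) a sham injection of buffer; trained groups (C + WBV, T + WBV) stood on a vibrating platform for 15 min a day at 45 Hz and 1.0 g from day 1, and tissues were taken at day 19. Extensor digitorum longus (EDL, a fast muscle) and soleus (SOL, a slow muscle) came from 12 control mice (6 trained) and 11 tumour-bearing mice (6 T and 5 T + WBV), and heart (HRT) from 3 mice of each group, all of which also gave both muscles, so that 58 arrays were measured in total. The C26 model is a single transplanted tumour line in young males, and whole tissue was used, so that a lower level may stand for fewer cells of a type or for less RNA per cell, which cannot be told apart.

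Wnt proteins are secreted lipid-modified ligands that bind Frizzled receptors with the co-receptors Lrp5 and Lrp6 and thereby keep beta-catenin from being degraded. Frizzled-related proteins and Wif1 bind Wnt ligands outside the cell, Dkk2 acts on the co-receptors, Dkk3 is a divergent Dickkopf whose receptor is less clear, and Axin2 is a scaffold of the complex that degrades beta-catenin and is itself switched on by Wnt signals. In adult muscle this pathway is known for its part in regeneration, fibre type and the connective tissue around fibres.

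The values were log2 intensities after robust multi-array averaging, and levels are compared only for the same gene between samples. For scale, 990 olfactory receptor genes, which muscle is not known to use, had a median of 2.58 for EDL, 2.56 for SOL and 2.46 for heart, with a 95th percentile of 3.67, 3.64 and 3.57. The mean of each of the 9 genes over all arrays of a tissue was above that tissue's percentile, closest for Sfrp4 in heart at 3.83 and for Dkk2 in heart at 4.01. The tissues matched their labels. In C mice all 8 slow fibre markers were higher and all 8 fast fibre markers lower in SOL than in EDL, and all 5 measured cardiomyocyte markers were higher in heart than in SOL. One EDL array stood apart, T + WBV replicate 3, with a summed tendon marker level of 7.56 against 10.20 to 12.42 in the other EDL arrays, and results that rest on it are also given without it.

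Promoter sequence, the 250 bases before the start that RefSeq's GRCm38.p6 table uses for each gene, was at hand for 6 of the 9 genes. Those of Frzb and Wif1 are shown because these are the pair among the 6 that passed the test between T and C in EDL, both in the lower direction. The Frzb sequence lies at chr2:80447397-80447646 on the minus strand, and the Wif1 sequence at chr10:121033754-121034003 on the plus strand. Capitals mark matches, on either strand, to the TCF/LEF core CTTTGA, a STAT motif TTCNNNGAA and a C/EBP motif TTGCNNAA.
Frzb: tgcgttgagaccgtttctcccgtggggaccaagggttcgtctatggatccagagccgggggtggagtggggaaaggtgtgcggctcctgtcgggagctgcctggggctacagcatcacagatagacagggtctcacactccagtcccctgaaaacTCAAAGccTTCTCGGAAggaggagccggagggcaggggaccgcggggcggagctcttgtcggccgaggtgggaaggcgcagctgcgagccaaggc
Wif1: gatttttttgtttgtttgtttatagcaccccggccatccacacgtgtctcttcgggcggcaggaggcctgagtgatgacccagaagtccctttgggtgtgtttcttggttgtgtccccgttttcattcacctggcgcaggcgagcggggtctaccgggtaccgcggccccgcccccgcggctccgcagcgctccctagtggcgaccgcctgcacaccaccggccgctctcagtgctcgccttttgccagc
Counting back from the gene start, the Frzb window held TCAAAG, the TCF/LEF core on the other strand, at -95 to -90 and the STAT match TTCTCGGAA at -87 to -79, which do not overlap. The Wif1 window held none of the 3 motifs. Among the 4 promoters not printed, Sfrp2 held the C/EBP match TTGCATAA at -45 to -38, and no other match to the 3 motifs was found. The start used for Sfrp2 lies inside the annotated gene, so that its match is not upstream of the whole gene. The window of Axin2 also lay inside its annotated gene, and that of Dkk2 did in part. Of 32851 promoters of this kind, 13.8% held the TCF/LEF core, 7.02% the STAT motif and 9.56% the C/EBP motif. GC content was 64.4% for Frzb and 62.8% for Wif1, against a median of 52.4% over all promoters. A match is a description of the letters and does not show that a factor binds there.

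Frzb, which binds Wnt ligands and was first known from cartilage, was lower in both skeletal muscles and higher in heart of tumour-bearing mice. In EDL its log2 value ran from 8.09 to 8.52 in C mice (median 8.36), from 7.99 to 8.45 in C + WBV mice (median 8.29) and from 4.81 to 7.48 in T mice (median 5.97). The T + WBV mice stood at 5.55, 5.84, 6.21, 6.37 and 7.96. Every tumour-bearing EDL was thus below every control EDL of the same training group, by the narrowest margin for the T + WBV mouse at 7.96 against the lowest C + WBV value of 7.99. Of all genes, 8.39% were lower without overlap between T and C in EDL and 4.43% between the trained groups. The difference between T and C was -2.39 (SE 0.32, 95% confidence interval -3.06 to -1.72, n = 6 and 6, adjusted p = 7.41e-06, limma), or 5.25-fold lower. Between T + WBV and C + WBV, which share no mice with that comparison, it was -1.87 (SE 0.34, adjusted p = 0.000494, limma), or 3.65-fold lower.

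In SOL, the contrast that led to the set, Frzb ran from 7.18 to 7.96 in C mice (median 7.74), from 7.30 to 8.46 in C + WBV mice (median 7.69) and from 4.12 to 5.86 in T mice (median 5.05). T + WBV mice had 4.79, 5.15, 5.20, 5.57 and 6.36. The mean difference was -2.65 between T and C. It was -2.35 for T + WBV against C + WBV, and neither pair of groups overlapped. Frzb was 1 of 9 members lower without overlap between T and C in SOL, as were 6.68% of all genes, and nothing is read from that count since it led to the choice. Wif1 came closest among the others, with a highest T value of 4.80 against a lowest C value of 4.73.

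In heart the direction was the opposite. Control hearts measured 6.89, 7.11 and 7.23 for Frzb without training and 7.03, 7.09 and 7.11 with it. Tumour-bearing hearts measured 7.44, 7.71 and 7.93 without and 7.62, 7.71 and 8.01 with training. Each of the 6 tumour-bearing hearts was above each of the 6 control hearts. T exceeded C by 0.61 (SE 0.13, 95% confidence interval 0.34 to 0.89, n = 3 and 3, adjusted p = 0.00679, limma), 1.53-fold, and T + WBV exceeded C + WBV by 0.70 (SE 0.13, adjusted p = 0.00750, limma). The call is close to the threshold of 0.01: it was lost with 1 prior variance for all genes (adjusted p = 0.0164), in a single fit over the 58 arrays (adjusted p = 0.438) and without any 1 of the C arrays, the C + WBV arrays, T replicate 1 or T replicate 2 (adjusted p up to 0.0387), while the difference stayed between 0.50 and 0.74. The trained call was lost without C + WBV replicate 1, 2 or 3, T + WBV replicate 1 or 3, C replicate 1 or T replicate 1 (adjusted p up to 0.0504), with a difference of 0.59 to 0.78. It was also lost with 1 prior variance (adjusted p = 0.0203), with only the compared groups in the fit (adjusted p = 0.0213) and in the single fit over the 58 arrays (adjusted p = 0.552). Tested directly, the tumour difference in EDL minus that in heart was -3.00 for Frzb (SE 0.45, 95% confidence interval -3.90 to -2.10, adjusted p = 1.02e-05, limma with the mouse as a random block), and it passed without each of the 18 arrays of these groups in turn (highest adjusted p 0.000152). Of all genes, 3.50% passed in that comparison.

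**Figure D1:**
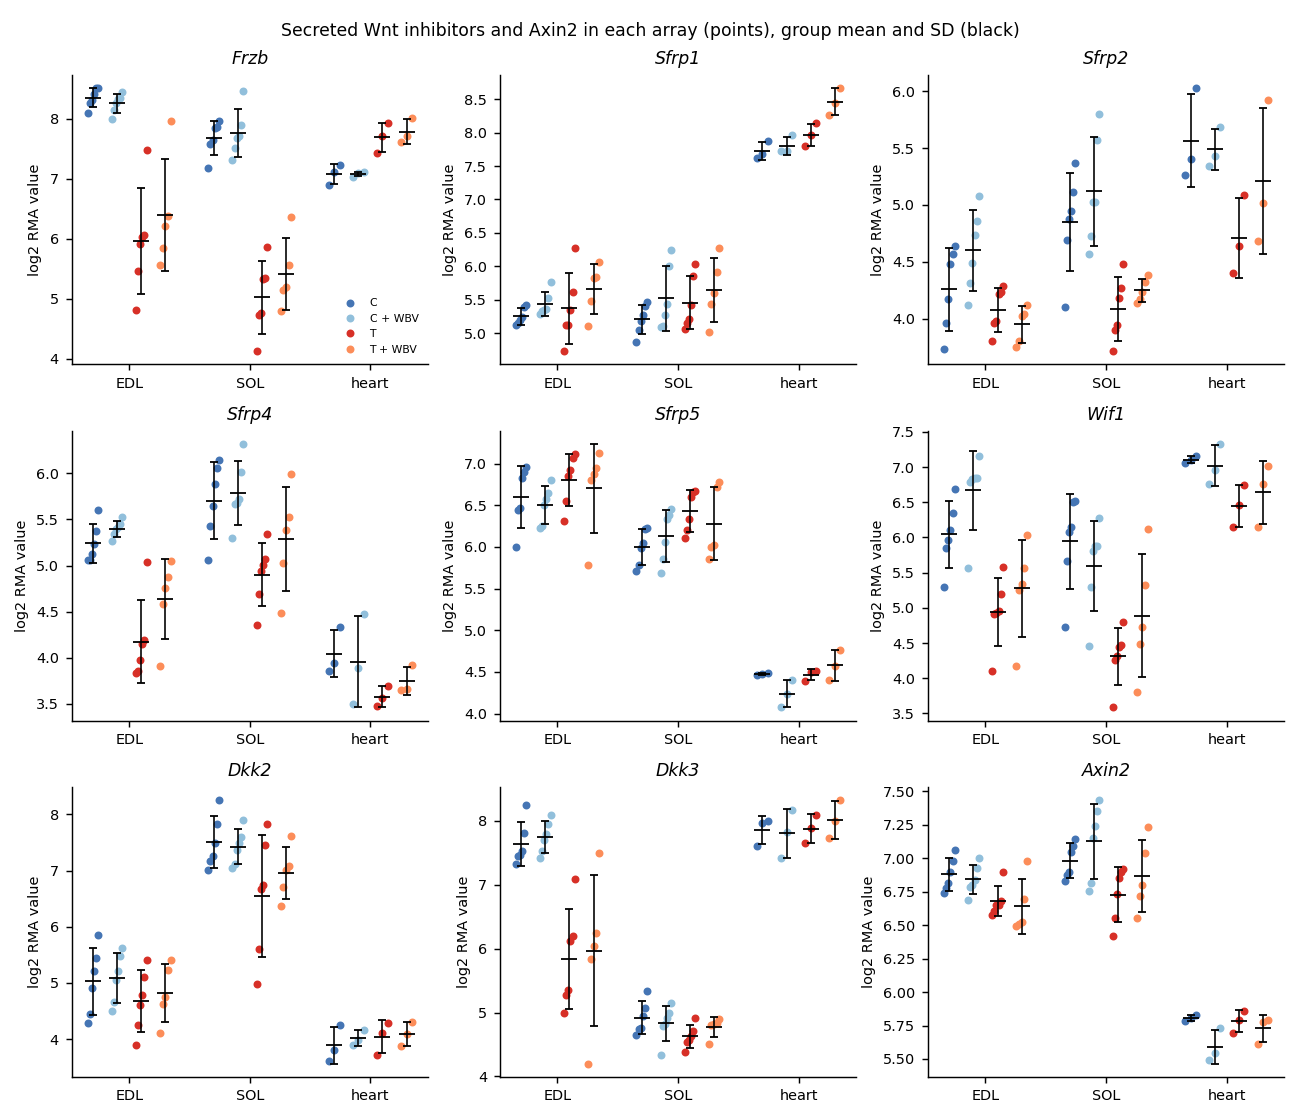
Log2 RMA value (y axis) of each of the 9 genes in every array, by tissue (x axis) and group (colour, in the order C, C + WBV, T, T + WBV); black marks give the group mean and SD. Frzb drops from about its control mean of 8.35 in EDL and 7.67 in SOL to 5.96 and 5.02 in T mice and rises from 7.08 to 7.69 in heart, and Dkk3 drops in EDL while its SOL values stay near 4.6 to 4.9.

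In EDL other members were lower beside Frzb. In all, 4 of the 9 genes were lower in T than in C mice (Frzb, Sfrp4, Wif1 and Dkk3) and 0 were higher, where 22.4% of all genes passed the test, 11.6% in the lower direction. The median difference of the 9 genes was -0.35 against -0.03 over all genes. Between T + WBV and C + WBV, 5 of the 9 were lower and 0 higher, where 11.9% of all genes passed, 6.60% in the lower direction. Between T + WBV and C, which shares its controls with the first comparison, Frzb (-1.96) and Dkk3 (-1.67) passed, where 11.1% of all genes did.

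Dkk3, the divergent Dickkopf, had the next largest difference among the 9 in EDL. It ran from 7.31 to 8.24 in C mice (median 7.49), from 7.41 to 8.08 in C + WBV mice (median 7.74) and from 4.99 to 7.08 in T mice (median 5.74), with T + WBV mice at 4.20, 5.83, 6.04, 6.25 and 7.50. T and C did not overlap, whereas the highest T + WBV value lay within the range of both control groups. The difference was -1.79 (SE 0.36, adjusted p = 0.000373, limma), 3.47-fold, for T against C and -1.77 (SE 0.38, adjusted p = 0.00167, limma) for T + WBV against C + WBV. In SOL, where its level was low, Dkk3 ran from 4.64 to 5.33 in C and from 4.38 to 4.92 in T mice, and the means differed by -0.29. In heart the difference was 0.02 (95% confidence interval -0.38 to 0.42, adjusted p = 0.966, limma), with C hearts at 7.61, 7.96 and 7.99 and T hearts at 7.64, 7.89 and 8.09. The tumour difference in EDL minus that in heart was -1.89 (SE 0.45, adjusted p = 0.00425, limma), a call that was lost without EDL T replicate 5 or 6, EDL C replicate 2, heart T replicate 2 or 3 or any 1 of the C hearts (adjusted p up to 0.0224).

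Sfrp4, a Frizzled-related protein also made by adipose and bone cells, was lower in EDL. C mice had 5.05 to 5.60 (median 5.18), C + WBV mice 5.27 to 5.52 (median 5.41) and T mice 3.83 to 5.04 (median 4.06), and T + WBV mice 3.91, 4.58, 4.76, 4.87 and 5.05. T was below C in every array, with a difference of -1.07 (SE 0.18, adjusted p = 4.70e-05, limma), 2.10-fold. Between T + WBV and C + WBV, where again no values overlapped, it was -0.76 (SE 0.18, adjusted p = 0.00420, limma), and leaving out T + WBV replicate 3 or 4 lost the call (adjusted p up to 0.0185). Frzb, Sfrp4 and Dkk3 were the 3 of 9 members whose T and C groups in EDL did not overlap, where 8.39% of all genes were lower without overlap, and Frzb and Sfrp4 were the 2 between the trained groups, where 4.43% were. In SOL Sfrp4 had a median of 5.77 in C and 4.98 in T mice, and C hearts had 3.86, 3.94 and 4.33. T hearts had 3.47, 3.56 and 3.69, around the olfactory receptor percentile of 3.57, so that no size of difference is given for heart.

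Wif1, which binds Wnt ligands through its own domain, overlapped between groups in EDL. It ran from 5.30 to 6.69 in C (median 6.03), from 5.56 to 7.16 in C + WBV (median 6.83) and from 4.10 to 5.58 in T mice (median 4.94), and T + WBV mice had 4.17, 5.25, 5.34, 5.57 and 6.04. The difference was -1.10 (SE 0.28, adjusted p = 0.00359, limma), 2.14-fold, for T against C, lost without T replicate 6 or C replicate 3 (adjusted p up to 0.0131). It was -1.40 (SE 0.30, adjusted p = 0.00165, limma) for T + WBV against C + WBV, and passed without each EDL array in turn. In SOL the median was 6.12 in C and 4.38 in T mice. In heart, C mice had 7.06, 7.09 and 7.16 and T mice 6.14, 6.47 and 6.74, without overlap, a difference of -0.66 (SE 0.20, adjusted p = 0.0446, limma) that did not pass.

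Sfrp2, a Frizzled-related protein of connective tissue cells, passed in EDL between the trained groups. T + WBV mice had 3.75, 3.80, 4.02, 4.04 and 4.12 and C + WBV mice 4.12 to 5.08 (median 4.61), which met at 4.12, a difference of -0.65 (SE 0.17, adjusted p = 0.00598, limma), lost without T + WBV replicate 1, 2, 3 or 4 or C + WBV replicate 2, 3 or 6 (adjusted p up to 0.0193). The call was also lost with the replicate number as a block (adjusted p = 0.0120), with only the compared groups in the fit (adjusted p = 0.0111) and in the single fit over the 58 arrays (adjusted p = 0.0147). The T + WBV values lay close to the olfactory receptor percentile of 3.67 in EDL, so that the size of the trained difference is uncertain. Untrained, the difference was -0.18 (SE 0.16, adjusted p = 0.443, limma), and whether the 2 differ was not called (interaction -0.47, adjusted p = 0.982, limma). In heart it was 5.27, 5.40 and 6.03 in C and 4.40, 4.63 and 5.09 in T mice, -0.86 (SE 0.28, adjusted p = 0.0571, limma). In SOL its median was 4.91 in C and 4.06 in T mice, and T + WBV and C + WBV mice did not overlap (highest 4.38 against lowest 4.56). In that comparison 2.09% of all genes were lower without overlap, and nothing is read from it since tumour-bearing SOL led to the choice of genes.

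None of the remaining members passed in EDL. Between T and C they were 0.12 for Sfrp1 (SE 0.18), 0.20 for Sfrp5 (SE 0.19), -0.35 for Dkk2 (SE 0.27) and -0.20 for Axin2 (SE 0.09, adjusted p = 0.0815), none past the threshold in limma. The intervals were -0.26 to 0.49 for Sfrp1 and -0.92 to 0.21 for Dkk2, so that changes of these sizes are not excluded. Axin2, the feedback gene of the pathway, ran from 6.74 to 7.06 in C, from 6.58 to 6.89 in T mice, with overlap, and in heart from 5.78 to 5.83 in C and from 5.69 to 5.86 in T mice. In SOL Dkk2, which acts on the Lrp co-receptors, was spread widely among T mice, from 4.98 to 7.84 (median 6.71), against 7.01 to 8.26 in C mice (median 7.37). Sfrp5 was the single member with a higher T than C mean by over 0.3 in SOL (0.43), with ranges of 6.10 to 6.67 and 5.71 to 6.23.

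Sfrp1, a further Frizzled-related protein, was highest in trained tumour-bearing hearts. It measured 7.63, 7.68 and 7.88 in C hearts and 7.72, 7.73 and 7.96 in C + WBV hearts. T hearts had 7.80, 7.96 and 8.14, and T + WBV hearts 8.27, 8.44 and 8.67. Sfrp1 in T + WBV hearts stood above all other hearts, 0.65 above C + WBV (SE 0.12, adjusted p = 0.00570, limma) and 0.49 above T (SE 0.12, unadjusted p = 0.000767, adjusted p = 0.345, limma), so that the difference from T did not pass over all genes. It was 1 of 9 members higher without overlap there, as were 6.08% of all genes. T and C differed by 0.24 (SE 0.12, adjusted p = 0.208, limma). Leaving out any 1 of the C + WBV hearts, T + WBV replicate 1 or T replicate 2 lost the call against C + WBV (adjusted p up to 0.0342), and so did 1 prior variance (adjusted p = 0.0182), only the compared groups in the fit (adjusted p = 0.0309), the replicate number as a block (adjusted p = 0.0101) and the single fit over the 58 arrays (adjusted p = 0.238). In heart, 1 of the 9 genes passed between T and C (Frzb), where 5.74% of all genes did, and 2 between T + WBV and C + WBV (Frzb and Sfrp1), where 1.49% did. The latter pair were also the members higher without overlap there, as were 9.99% of all genes. Between T + WBV and C, which shares its controls with T against C, Frzb (0.71) and Sfrp1 (0.73) passed, where 1.47% of all genes did. Leaving out single arrays lost that call of Frzb for 9 of 12 arrays, all but T replicates 2 and 3 and T + WBV replicate 2 (adjusted p up to 0.0481), and that of Sfrp1 for C replicate 1 or 3 or T + WBV replicate 1 (adjusted p up to 0.0186). Both of these calls were lost with 1 prior variance, with only the compared groups and in the single fit (adjusted p up to 0.512 for Frzb and 0.136 for Sfrp1). Without overlap between T and C hearts, Frzb was higher, as were 15.7% of all genes, and Sfrp2, Wif1 and the dim Sfrp4 were lower, as were 16.3%.

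**Figure D2:**
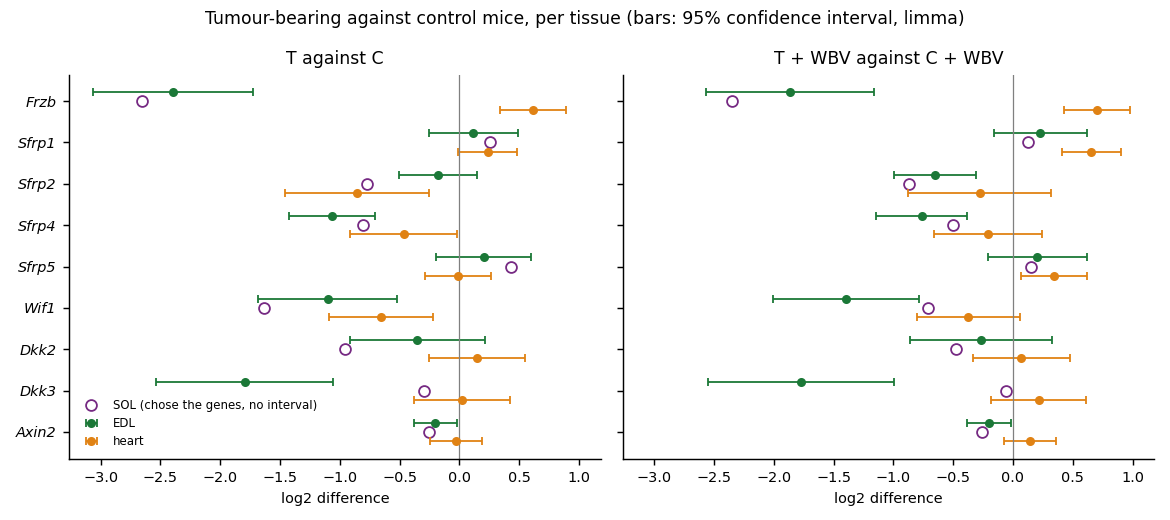
Log2 difference (x axis) between tumour-bearing and control mice for each of the 9 genes (y axis), untrained on the left and trained on the right. Filled points with bars are EDL and heart with the 95% confidence interval from limma, and open circles are SOL, which led to the choice of the genes and carries no interval. Frzb lies at -2.39 in EDL and at 0.61 in heart, and Dkk3 at -1.79 in EDL and 0.02 in heart.

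Vibration training did not pass the test for any member. Between T + WBV and T, and between C + WBV and C, 0 of the 9 genes were called in EDL, SOL or heart, and 0 of all 18820 genes were, which is 0%. At an unadjusted p under 0.05 limma counted 902 (EDL), 939 (SOL) and 1407 (heart) genes between T + WBV and T, of which 1, 0 and 1 were members, and 598 to 627 between C + WBV and C, of which 2 were members in EDL (Sfrp2 and Wif1) and 0 elsewhere. The EDL member among tumour-bearing mice was Sfrp4, higher by 0.46 in T + WBV (95% confidence interval 0.08 to 0.84, adjusted p = 0.867, limma). Frzb in EDL was higher by 0.43 in T + WBV than in T (95% confidence interval -0.27 to 1.13, adjusted p = 0.880, limma), an interval that includes 0. In heart, C + WBV mice had 4.07 to 4.40 for Sfrp5, below C mice at 4.47 to 4.49. For Axin2 they had 5.49 to 5.73, below C mice at 5.78 to 5.83. Neither gene had an unadjusted p under 0.05 in limma. The share of all genes that separate in this way was not counted, so nothing is read from it. The interaction of tumour and training was called for 0 of the 9 genes in EDL and in heart. At an unadjusted p under 0.05 limma counted 596 genes in EDL and 1105 in heart for it, with 1 member in each, Sfrp2 in EDL and Sfrp1 in heart (0.42, adjusted p = 0.797).

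Frzb and Dkk3 in EDL were higher in tumour-bearing mice that had kept more body mass. In the 11 such mice, body mass at day 19, as a percentage of the mean of days 0 and 1, ran from 77.5 to 91.0 in T and from 75.9 to 100.9 in T + WBV mice, against 107.0 to 114.5 in controls. In the paper carcass mass, unlike body mass, leaves out the tumour, so this percentage includes tumour weight. No slope on carcass mass was fitted. The mice at 91.0 and 100.9 also had the highest carcass mass of their groups, at 19.49 and 22.95 g. Per 10 percentage points, and with the training group in the model, Frzb in EDL rose by 1.08 (SE 0.18, 95% confidence interval 0.71 to 1.46, adjusted p = 0.00485, limma) and Dkk3 in EDL by 1.18 (SE 0.18, adjusted p = 0.00402, limma). They were 2 of 9 members called, where 1.17% of all genes were. The slope in EDL was 0.51 for Sfrp4 (adjusted p = 0.0167) and 0.64 for Wif1 (adjusted p = 0.0210), neither past the threshold in limma. In SOL, with Frzb left out of the count, no member was called, where 0.335% of all genes were. At an unadjusted p under 0.05 limma counted 2831 genes, among them Wif1 (slope 0.67, adjusted p = 0.0758). The Frzb slope in SOL was 0.73, given without a test since its SOL values took part in the choice of the genes.

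These slopes rest on few animals. The tumour-bearing mice that had kept most body mass, T replicate 3 at 91.0% and T + WBV replicate 2 at 100.9%, had the highest value of their group for Frzb (7.48 and 7.96), Dkk3 (7.08 and 7.50), Sfrp4 (5.04 and 5.05) and Wif1 (5.58 and 6.04) in EDL and for Frzb in SOL (5.86 and 6.36). Without both of them no member passed in EDL, with a slope of 0.54 for Frzb (adjusted p = 0.951) and 1.52 for Dkk3 (adjusted p = 0.396) in limma. Leaving out either of them, or T + WBV replicate 3 at 75.9%, also lost both calls (adjusted p up to 0.107 for Frzb and 0.0515 for Dkk3). In heart the T + WBV mouse at 100.9% had 7.62 for Frzb, the lowest of its group.

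**Figure D3:**
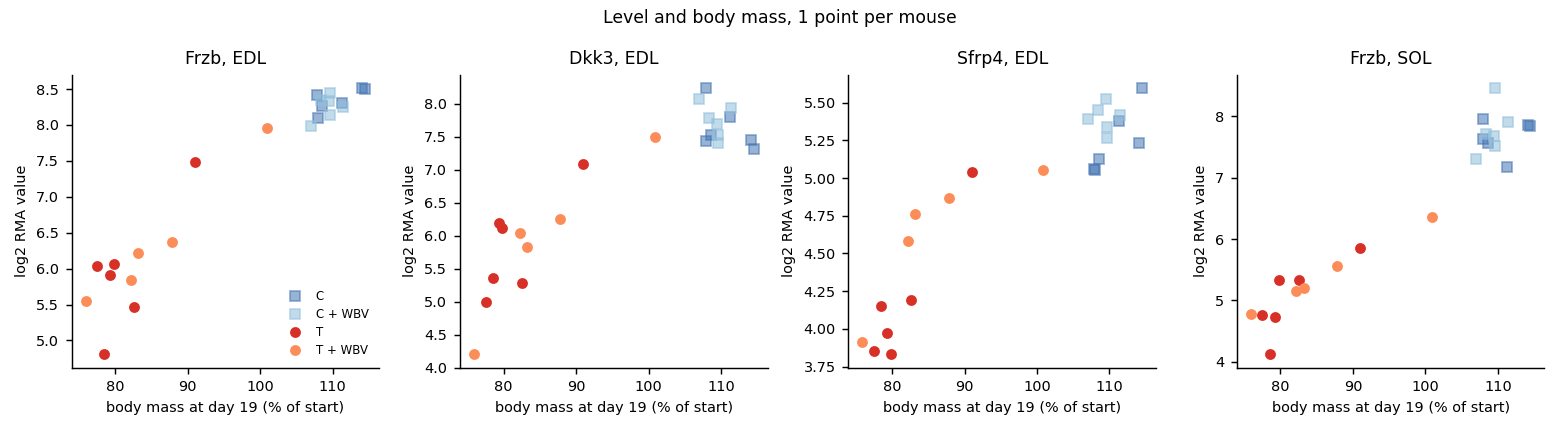
Log2 RMA value (y axis) against body mass at day 19 as a percentage of the start (x axis), 1 point per mouse, for Frzb, Dkk3 and Sfrp4 in EDL and Frzb in SOL; circles are tumour-bearing and squares control mice. The T mouse at 91.0% and the T + WBV mouse at 100.9% lie at 7.48 and 7.96 for Frzb in EDL, closest to the controls.

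The tissues differed in which inhibitors they held. In C mice Dkk2 was 2.48 higher in SOL than in EDL (SE 0.28, adjusted p = 3.90e-10, limma), with 7.01 to 8.26 against 4.28 to 5.86, and Dkk3 was 2.71 lower in SOL (-2.71, SE 0.25, adjusted p = 1.02e-12, limma), with 4.64 to 5.33 against 7.31 to 8.24. The 2 Dickkopf genes thus showed opposite patterns in the slow and the fast muscle, each without overlap. Sfrp5, known from adipose tissue, was lower in SOL by 0.60 (-0.60, adjusted p = 0.00536, limma), a call lost without EDL C replicate 1, 5 or 6 or SOL C replicate 1, 2 or 5 (adjusted p up to 0.0249). In all, 3 genes passed between SOL and EDL, with Frzb left out of the count, where 13.9% of all genes did. Frzb was at -0.68 in SOL. Its control SOL values took part in the choice of the genes, so that no test is given for it here. Sfrp2 (0.59), Sfrp4 (0.46), Wif1 (-0.10), Axin2 (0.10) and Sfrp1 did not pass.

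Heart differed from both muscles in most members. Against SOL the largest differences among the 9 were those of Dkk2, lower in heart (-3.64, adjusted p = 8.75e-13, limma), and Dkk3, higher in heart (2.91, SE 0.32, adjusted p = 4.57e-11, limma). Dkk3 did not pass between heart and EDL (0.20, adjusted p = 0.653, limma). Sfrp1 was 2.44 higher in heart than in EDL (adjusted p = 5.12e-14, limma) and 2.49 higher than in SOL (adjusted p = 3.52e-14, limma), whereas EDL and SOL differed by -0.05 (adjusted p = 0.900, limma). Sfrp2 was higher in heart as well, by 1.32 against EDL (adjusted p = 2.28e-06, limma) and 0.73 against SOL (adjusted p = 0.00852, limma), the latter lost without SOL C replicate 1, 4, 5 or 6 or heart C replicate 2 or 3 (adjusted p up to 0.149). Lower in heart than in both muscles were Sfrp4 (-1.22 against EDL, -1.68 against SOL), Sfrp5 (-2.12 and -1.52), Dkk2 (-1.16 and -3.64) and Axin2 (-1.08 and -1.18), all past the threshold in limma, with the call for Dkk2 against EDL lost without EDL C replicate 2 or 4 or heart C replicate 1 or 3 (adjusted p up to 0.0338). The C heart values of Dkk2 (3.61 to 4.25) and Sfrp4 (3.86 to 4.33) lay near the olfactory receptor percentile of 3.57. The sizes of their heart differences are therefore uncertain. Without the random block for the mouse the calls of Sfrp2 against SOL (adjusted p = 0.0161) and of Dkk2 against EDL (adjusted p = 0.0119) were lost. Frzb was lower in heart than in EDL (-1.27, adjusted p = 0.000835, limma), and against SOL its difference was -0.59, given without a test. Wif1 was at 1.01 in heart relative to EDL (adjusted p = 0.0181) and at 1.11 relative to SOL (adjusted p = 0.0114), neither past the threshold in limma, though both passed with only C mice that had both tissues and the mouse as a fixed block (adjusted p = 0.00181 and 0.000324). In total 7 of the 9 genes passed between heart and EDL, where 31.9% of all genes did. Between heart and SOL 7 passed, with Frzb left out of the count, where 25.0% of all genes did.

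Ordered by group mean, Frzb was at 8.35 in C and 8.25 in C + WBV EDL, 7.78 in T + WBV heart, 7.76 in C + WBV SOL, 7.69 in T heart, 7.67 in C SOL, 7.08 in C and C + WBV heart, 6.39 in T + WBV and 5.96 in T EDL, and 5.41 in T + WBV and 5.02 in T SOL. Neighbouring groups in this order overlapped, except that C + WBV heart (7.03 to 7.11) lay below C SOL (7.18 to 7.96). By their means, control hearts stood below control muscles and tumour-bearing hearts above tumour-bearing muscles.

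Other genes with a profile like that of Frzb were sought by Pearson's r of the log2 values over the 23 arrays of a muscle, which hold both tumour-bearing and control mice and therefore share that group difference. In EDL the highest were Agbl1 (r = 0.993), Filip1l (0.992), Ptprs (0.991), Chrne (0.989), the adult acetylcholine receptor subunit of the nerve-muscle junction, and Casq1 (0.987), the calcium-binding protein of the sarcoplasmic reticulum. In SOL they were Nrep (0.978), Dusp22 (0.977), the ubiquitin ligase Wwp1 (0.971), the calcium channel subunit Cacna2d1 (0.969) and Alas1 (0.966), the first enzyme of heme synthesis. In heart these genes did not follow Frzb upwards by their means: Nrep had 6.89 in C and 4.85 in T hearts, Casq1 8.43 and 6.60, and Ptprs 7.44 and 6.99. Among the members, r with Frzb in EDL was 0.910 for Dkk3, 0.896 for Sfrp4, 0.773 for Wif1, 0.728 for Axin2, 0.474 for Sfrp2, 0.404 for Dkk2, 0.093 for Sfrp1 and -0.149 for Sfrp5. In SOL it was 0.822 for Sfrp2, 0.736 for Wif1, 0.724 for Sfrp4, 0.688 for Dkk2 and 0.589 for Axin2, but 0.303 for Dkk3, -0.026 for Sfrp1 and -0.482 for Sfrp5.

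Markers of other cell types also differed between groups in the same comparisons, and their part in the results was not tested. In EDL of T mice 5 of 9 measured fibroblast markers were lower and 0 higher than in C, and 4 of 8 tendon markers were lower and 0 higher. The summed fibroblast level ran from 12.05 to 12.82 in T and from 12.76 to 13.38 in C mice (log2), and the summed tendon level from 10.20 to 11.76 and from 11.19 to 12.31. Of the defining fibroblast genes, Dpt was at 7.14 ± 0.66 (SD, n = 6) in T and 8.08 ± 0.23 in C mice and Pdgfra at 7.30 ± 0.22 and 7.23 ± 0.22. Of the defining tendon genes, Tnmd was at 5.10 ± 1.29 and 8.14 ± 0.51 and Scx at 5.26 ± 0.55 and 6.15 ± 0.43. In the same EDL comparison 4 of 8 fast fibre markers were lower, with a summed level of 15.13 to 15.60 in T and 15.61 to 15.72 in C mice, and 0 of 4 satellite cell and 0 of 5 macrophage markers passed. The summed level of the cardiomyocyte list was lower without overlap too, at 8.36 to 9.01 in T and 9.47 to 10.525 in C mice, with 1 of 5 measured markers lower. Of all genes, 8.39% were lower without overlap there.

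Between the trained EDL groups 3 of 9 fibroblast and 3 of 8 tendon markers were lower and 0 higher. The summed fibroblast level ran from 11.73 to 12.87 in T + WBV and from 12.78 to 13.37 in C + WBV mice, and the summed tendon level from 7.56 to 11.96 and from 11.53 to 12.42. T + WBV replicate 3 was the lowest EDL array for both lists, and of its group for Frzb, Dkk3, Sfrp4 and Wif1. Without it the differences between T + WBV and C + WBV were -1.66 for Frzb (adjusted p = 0.00250), -1.33 for Dkk3 (adjusted p = 0.00570), -1.12 for Wif1 (adjusted p = 0.00722) and -0.58 for Sfrp4 (adjusted p = 0.0185, not past the threshold) in limma. The mildest mice, T replicate 3 and T + WBV replicate 2, had the highest sums of their groups in EDL, 12.82 and 12.87 for fibroblast and 11.76 and 11.96 for tendon markers.

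In SOL, described without a test, the median difference between T and C mice was -0.95 over the 9 measured fibroblast markers and -2.01 over the 8 tendon markers. There the sums did not overlap, with 11.81 to 12.68 in T and 12.99 to 13.58 in C mice for fibroblast and 10.46 to 11.42 and 11.86 to 12.84 for tendon markers. Tnmd was at 5.39 ± 0.81 (SD, n = 6) in T and 9.51 ± 0.49 in C mice, Dpt at 7.54 ± 0.51 and 8.48 ± 0.22, and Pdgfra at 7.53 ± 0.38 and 7.49 ± 0.20. Between the trained SOL groups these median differences were -0.65 and -0.54, and both sums overlapped.

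Neutrophil markers were higher in EDL (4 of 5), with a summed level of 6.28 to 8.43 in T and 5.61 to 6.14 in C mice. They were also higher in heart (5 of 5), with 7.75 to 8.62 against 6.00 to 6.51. In SOL, described without a test, the summed neutrophil level was 6.78 to 7.91 against 5.80 to 6.23, with a median difference of 1.64. In heart 3 of 9 fibroblast markers were higher and 1 lower, with a summed level of 13.45 to 13.57 in T and 13.28 to 13.37 in C mice, and 3 of 5 macrophage markers were higher, with 10.80 to 10.89 against 9.57 to 9.86. The fibroblast genes Pdgfra and Dpt were at 8.88 ± 0.06 and 10.44 ± 0.14 (SD, n = 3) in T hearts against 8.32 ± 0.13 and 9.93 ± 0.06 in C hearts. Frzb had the same direction there, whereas Sfrp2, Wif1 and the dim Sfrp4 were lower in T hearts. With 3 hearts per group, 16.3% of all genes were lower and 15.7% higher without overlap between T and C. Other sums were lower in T hearts without overlap as well. They were those of smooth muscle and pericytes (11.77 to 11.83 in T and 12.29 to 12.46 in C, 1 of 5 markers lower), of mesothelium (7.47 to 7.91 and 8.27 to 8.61, 1 of 4) and of atria (12.54 to 13.04 and 13.13 to 13.48, 1 of 4). The cardiomyocyte sum (14.68 to 14.82 and 14.89 to 14.91, 0 of 5) was lower without overlap too. So were those of slow fibres (14.71 to 14.76 and 14.80 to 14.84, 1 of 8 lower and 1 higher) and cartilage (6.37 to 6.49 and 6.545 to 6.62, 0 of 4). The satellite cell sum was higher without overlap (5.97 to 6.03 in T and 5.69 to 5.87 in C, 0 of 4). The adipocyte sum overlapped (7.62 to 8.16 and 7.73 to 9.64, 0 of 5 called, median difference -1.31).

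Elsewhere in the pathway, lists by role held 90 genes, of which 87 were measured. In EDL of T against C mice 15 of the 87 were lower and 3 higher, with a median difference of -0.10 against -0.03 over all genes, where 22.4% of all genes passed. In heart 4 were lower and 1 higher, with a median of 0.05 against 0.00 over all genes, where 5.74% of all genes passed. None of the 7 other secreted inhibitors, such as Dkk1, Sost and Notum, passed in EDL or heart.

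Among the 19 ligands, Wnt5a, which signals largely without beta-catenin, was lower in EDL by 1.61 (-1.61, SE 0.22, adjusted p = 6.98e-06, limma) and Wnt16 by 0.61 (-0.61, adjusted p = 0.00689). Wls, which carries Wnt proteins to the cell surface, was lower in EDL (-0.77, adjusted p = 0.000406) and in heart (-0.46, adjusted p = 0.00332). Of 18 receptor genes, Fzd9 (-0.67) and the co-receptor Lrp6 (-0.65) were lower in EDL, and Fzd2 was lower in heart (-0.84, adjusted p = 0.000885) but not in EDL (0.13, adjusted p = 0.395). Of the 9 genes of the R-spondin branch, which tunes receptor turnover, Lgr4 (-0.47), Lgr5 (-0.41) and Lgr6 (-0.84) were lower in EDL and Lgr4 in heart (-0.50).

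Inside the cell, the kinase gene Gsk3b was higher in EDL (0.49, adjusted p = 0.000260, limma) and Amer1 (-0.52) and Tnks2 (-0.41) lower, among 12 measured genes of the cytoplasmic pathway of which 1 was higher and 4 lower. Of 12 TCF factors and cofactors, Pygo1 was higher (0.55) and Tle2 lower (-0.42) in EDL, and Bcl9l was higher in heart (0.45, adjusted p = 0.00880). Target genes went both ways. Myc was higher in EDL by 1.44 (adjusted p = 4.40e-05), Ccnd1, the cyclin D gene, was lower in EDL (-0.97, adjusted p = 1.88e-05) and heart (-1.18, adjusted p = 0.000583), and Ccn4 was lower in EDL (-0.66, adjusted p = 0.000427) with a value of 0.54 in heart (adjusted p = 0.0180). Leaving out single arrays lost the EDL calls of Wnt16 (8 of 23 arrays), Lgr5 (8), Amer1 (7) and Tle2 (5), and in heart those of Bcl9l (9 of 12), Lgr4 (6) and Wls (5). Of 8 or 9 other processing settings, some lost the EDL calls of Lgr5 (3), Wnt16 (2), Tle2 (2) and Amer1 (1), with adjusted p up to 0.0287, and the heart calls of Bcl9l (3, adjusted p up to 0.415), Lgr4 (2, up to 0.0450) and Wls (1, 0.157).

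**Figure D4:**
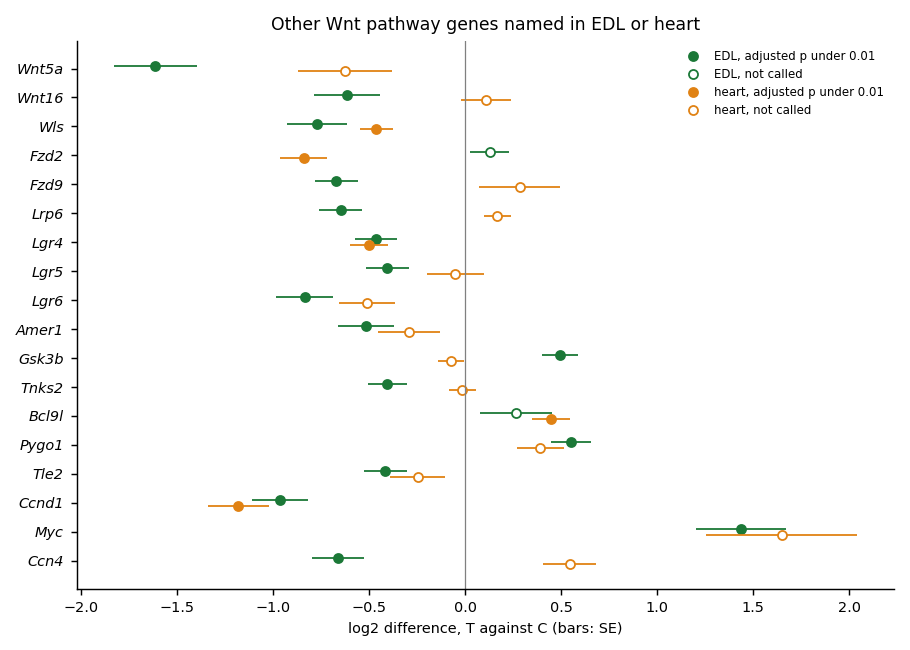
Log2 difference between T and C mice (x axis, bars give the SE from limma) in EDL and heart for the Wnt pathway genes outside the 9 (y axis), chosen as the up to 3 per list with the largest called difference in either tissue. Filled points passed the adjusted p threshold of 0.01. Wnt5a lies at -1.61 in EDL, Ccnd1 below 0 in both tissues, and Myc above 0 in both, past the threshold in EDL alone.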

How the data were processed

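RNA from EDL, SOL and heart was labelled and hybridised to Affymetrix Mouse Gene 1.1 ST arrays, and the deposited values are log2 intensities that the authors normalised by RMA over the arrays; no RMA version was found in these sources. The table held 35556 probe sets on 58 arrays, from 0.67 to 13.55, with array medians of 4.52 to 4.60. GEO's platform annotation gave 1 symbol for 21218 probe sets, several for 1881 (left out) and none for 12457, and values were averaged per symbol (18820 genes, 1386 of them with several probe sets). The methods name a custom probe set definition, whereas the deposited table follows the array's own, so that gene values may differ. No pair of arrays was identical (highest r 0.989).

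Each tissue was fitted on its own over its 4 groups with limma 3.58.1 (lmFit, eBayes with a trend; R 4.3.3), with Benjamini-Hochberg adjustment over all genes and a threshold of 0.01. Tissue contrasts, and the EDL against heart difference, used all 58 arrays with the mouse as a random block (correlation 0.137). Mice are separate animals, and their number limits the precision. The fit was tested on simulated data: for EDL T against C, 93% of genes changed by 1 log2 unit and 99% changed by 2 were recovered over 18820 genes, and for heart 77% and 98%. There were 5 false calls for EDL and 2 for heart. The simulated spread of a gene was the same in all groups. Frzb in EDL, in contrast, had an SD of 0.16 in C and 0.88 in T mice, so that these rates may not hold for it.

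The members, the Wnt and marker lists, and the rule for named genes (all members, up to 3 per Wnt list, the 5 genes most like Frzb in each muscle, summed levels and the 2 defining genes of marker lists) were chosen with earlier results of these data known. The slow fibre, cardiomyocyte, cartilage, endothelium and Schwann cell lists had at most 2 genes called in a direction between T and C in EDL or in heart. The heart sums of the slow fibre, cardiomyocyte and cartilage lists were nonetheless lower in T without overlap, as were 16.3% of all genes. Alternatives were the prior variance, an intensity-based statistic, a second quantile normalization, genes above the median level, the highest probe set per gene, the set of arrays fitted, blocks and covariates, and leaving out each array. Promoters are credited to RefSeq (GRCm38.p6).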

Additional observations from a re-analysis of the deposited data

Results flagged for a closer look

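Of 72 groups of 5 or 6 arrays tested for a single value far from the rest, 5 held one, where chance gives about 1 in 20. Sfrp4 in EDL was at 5.04 in T replicate 3, against 3.83 to 4.19 in the other T mice. Sfrp5 in EDL was at 5.78 in T + WBV replicate 3, against 6.81 to 7.12 in the others. Wif1 in EDL was at 5.56 in C + WBV replicate 5, against 6.79 to 7.16. Dkk3 in SOL was at 4.51 in T + WBV replicate 2, against 4.81 to 4.90. Axin2 in EDL was at 6.89 in T replicate 6, against 6.58 to 6.68.

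The tumour difference (T against C) in EDL minus that in heart was -3.00 for Frzb and -1.89 for Dkk3, both past the threshold in limma. Every tumour-bearing SOL was below every control SOL of its training group and every tumour-bearing heart above every control heart for Frzb, a gap of -3.27 between the tissues for T against C and of -3.05 for T + WBV against C + WBV; for EDL and heart in the trained groups the gap was -2.57. These last 3 differences were not tested.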

How the results depend on the processing

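Values by alternative, for counts of members called out of 9. With the groups compared alone in the fit, EDL T + WBV against C gave 1 (2 otherwise), heart T against C 2 (1), heart T + WBV against C 0 (2) and heart T + WBV against C + WBV 0 (2). With 1 prior variance, and likewise with all 58 arrays in 1 fit, those 3 heart counts were 0, 0 and 0. Among genes above the median level alone, where fewer genes are tested, EDL T + WBV against C + WBV gave 3 (5). Without a term for the training group the EDL slope gave 4 (2), and leaving out T replicate 3 and T + WBV replicate 2, the extremes of body mass, the EDL slope gave 0. The SOL slope is not counted here, since Frzb in SOL is given without a test. Without the random block for the mouse, EDL against heart gave 1 (2). Apart from fewer genes or mice, the cause was not tested.

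Without 1 array at a time the counts ran from 3 to 4 in EDL T against C, 2 to 4 in T + WBV against C and 3 to 5 in T + WBV against C + WBV. They ran from 0 to 2 in each of the 3 heart tumour comparisons, from 1 to 2 for EDL against heart and from 0 to 3 for the EDL slope. Training counts stayed at 0. In SOL, T + WBV against C + WBV, Sfrp1 (0.12) was -0.050 with the arrays whose description ends in _2 as a covariate and -0.032 to 0.28 without 1 array, and Dkk3 (-0.06) was -0.16 to 0.0083. No called member turned in direction.

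Replicate numbers do not mark shared animals between groups. Same-numbered T and C arrays had correlations of deviations from -0.02 to 0.07 in EDL and -0.08 to 0.14 in SOL, and 2 of 6 pairs matched best with their own number in each. With the replicate number as a block, EDL T against C still gave 4 called members. With that block, heart T + WBV against C + WBV gave 1 in place of 2 (Sfrp1 lost, adjusted p = 0.0101), EDL T + WBV against C + WBV lost Sfrp2, and no other count of members changed by over 1.5 times.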
